A study of Mus musculus with 16 samples.

Results

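Induced regulatory T cells made in culture with TGFβ (TGFβ iTreg) were compared with the naive CD4 T cells that such cultures start from, by the genome-wide distribution of 5-hydroxymethylcytosine (5hmC). The comparison uses all 177720 regions of the deposited count table and 4 of its 16 libraries, namely 2 pull-downs of TGFβ iTreg and 2 pull-downs of naive cells. The measurement was CMS-IP, in which bisulfite converts 5hmC to cytosine-5-methylenesulfonate and an antiserum against that product precipitates the DNA that carries it. The mice were C57BL/6, aged 5 to 6 weeks, and gave spleens and lymph nodes. Their Foxp3-eGFP allele reports Foxp3. The TGFβ iTreg had been differentiated from CD4+ naive cells with TGFβ. The naive cells had been sorted as CD4+eGFP-CD25-CD62LhiCD44lo. No group was cultured without TGFβ, so culture, activation and TGFβ cannot be told apart, and no sort of the cultured cells for eGFP is given for these libraries. The gate excludes CD25 protein on the naive side, which bears on its gene Il2ra below.

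TET enzymes oxidise methylated cytosine to 5hmC, which can persist as a mark of its own or be removed on the way to demethylation. In T cells 5hmC lies along the bodies of active genes and over enhancers that are being opened. TGFβ signals through a receptor pair that phosphorylates SMAD proteins and, together with T cell receptor and IL-2 signals, brings naive CD4 cells to express Foxp3, the lineage factor of regulatory T cells (Treg).

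The promoters of 6 genes stand for the comparison. Ranked were regions on a promoter or 5′ UTR of members of the gene lists used below. Each had passed the test described below with a mean of at least 50 reads in the higher group. Among these, Il2ra, Nfil3 and Ifitm3 carried the largest gains of 5hmC, and Isg15, Slc16a1 and Bach1 the largest losses. All 6 genes have 1 listed start. Sequences run 5′ to 3′ from 250 bases before to 50 after the start, from RefSeq on GRCm38.p6, with each CpG, the site that DNA methyltransferases and TET enzymes act on, in capitals.
Il2ra: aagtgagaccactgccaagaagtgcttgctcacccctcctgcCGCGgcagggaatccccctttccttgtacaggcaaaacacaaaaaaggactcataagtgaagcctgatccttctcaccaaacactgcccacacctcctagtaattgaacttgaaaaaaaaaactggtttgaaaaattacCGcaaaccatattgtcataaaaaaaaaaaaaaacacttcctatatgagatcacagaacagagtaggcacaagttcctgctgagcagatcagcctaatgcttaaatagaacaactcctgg
Nfil3: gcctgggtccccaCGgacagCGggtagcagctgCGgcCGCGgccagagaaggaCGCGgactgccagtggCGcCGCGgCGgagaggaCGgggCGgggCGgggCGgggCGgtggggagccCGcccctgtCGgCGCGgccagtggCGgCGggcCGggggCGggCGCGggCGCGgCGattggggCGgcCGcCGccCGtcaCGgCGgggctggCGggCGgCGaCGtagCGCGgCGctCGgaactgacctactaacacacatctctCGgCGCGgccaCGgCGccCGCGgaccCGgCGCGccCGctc
Ifitm3: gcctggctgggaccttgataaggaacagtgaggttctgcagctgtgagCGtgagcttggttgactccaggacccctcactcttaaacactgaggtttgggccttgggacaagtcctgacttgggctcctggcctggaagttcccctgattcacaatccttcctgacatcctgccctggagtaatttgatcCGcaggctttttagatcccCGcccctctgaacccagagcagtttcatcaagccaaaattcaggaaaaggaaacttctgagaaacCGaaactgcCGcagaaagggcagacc
Isg15: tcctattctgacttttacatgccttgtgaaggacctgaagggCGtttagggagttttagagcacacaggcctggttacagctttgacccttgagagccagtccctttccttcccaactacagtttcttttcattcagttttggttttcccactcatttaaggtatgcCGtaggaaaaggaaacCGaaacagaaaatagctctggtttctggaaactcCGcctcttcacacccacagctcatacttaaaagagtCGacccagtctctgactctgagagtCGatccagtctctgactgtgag
Slc16a1: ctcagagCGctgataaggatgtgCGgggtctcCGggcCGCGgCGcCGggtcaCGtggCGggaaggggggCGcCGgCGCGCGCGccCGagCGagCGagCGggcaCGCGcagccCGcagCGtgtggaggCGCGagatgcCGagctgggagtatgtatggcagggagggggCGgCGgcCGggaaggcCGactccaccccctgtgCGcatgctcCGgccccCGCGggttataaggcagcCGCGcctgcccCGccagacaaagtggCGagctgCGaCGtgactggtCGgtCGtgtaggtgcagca
Bach1: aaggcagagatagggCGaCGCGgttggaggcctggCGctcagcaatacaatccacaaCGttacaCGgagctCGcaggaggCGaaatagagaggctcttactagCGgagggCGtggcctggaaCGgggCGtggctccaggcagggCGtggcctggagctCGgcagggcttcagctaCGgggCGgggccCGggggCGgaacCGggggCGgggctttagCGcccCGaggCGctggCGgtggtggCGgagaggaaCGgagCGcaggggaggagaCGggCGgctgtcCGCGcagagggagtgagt

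These windows hold between 3 CpGs (Il2ra) and 54 CpGs (Nfil3). Low and high CpG content occur on both sides, with 3 CpGs for Il2ra and 5 for Ifitm3 among the gains and 6 for Isg15 among the losses, against 54 for Nfil3 (gain), and 42 for Slc16a1 and 31 for Bach1 (losses). The Isg15 window contains the core of the interferon-stimulated response element (ISRE: GAAA, 2 bases of any kind, GAAA) 3 times in an overlapping array, and the Ifitm3 window holds it 2 times (both strands searched). Across genes with 1 start, the median was 19 CpGs per window for the 911 with a promoter region that rose. It was 22 for the 1007 with a promoter region that fell and 21 for the 5580 with one that did not pass the test. These sets come from 6546 genes and overlap, since a gene with several such regions can stand in more than 1 set. The ISRE core was present in 2.85% of windows of the first set, 2.88% of the second and 3.12% of the third, against 3.44% of all 32851 RefSeq promoter windows. The STAT letters TTCNNNGAA were in 8.23%, 6.45% and 6.67% of these sets, against 8.30% of all windows. The AP-1 letters TGANTCA were in 7.14%, 4.97% and 4.52%, against 7.81% of all windows. The 2 builds were joined by gene and not by position, so a window need not lie inside the region that was tested.

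Pull-down libraries differed in depth, with 1648804 and 2114056 reads in regions for TGFβ iTreg, against 7773777 and 9731897 for naive cells. The pull-down held 1.49 and 1.72 times the reads of its input in TGFβ iTreg, against 5.50 and 6.39 times in naive cells. A region without a read can stand at up to 3 reads, which is 1.79 and 1.5 CPM (read counts scaled to a common library size by TMM) in the TGFβ iTreg libraries, against 0.385 and 0.308 CPM in the naive libraries. This covers counting error only. The same test on inputs called 1 of 44917 regions higher and 0 lower by edgeR, with 4.94% at an unadjusted p under 0.05. Replicate pull-downs varied 1.12 times as much as counting error in TGFβ iTreg and likewise 1.12 times in naive cells. Spike-in reads were not used, so every value is relative within a library and says nothing of the total amount of 5hmC. In bulk DNA, fewer cells of a type and less 5hmC per cell cannot be told apart.

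5hmC was redistributed at a large part of the genome's regions, and the regions called as gains and as losses differed in size and width. Of 135412 regions tested, 17693 (13.1%) rose and 11213 (8.28%) fell in TGFβ iTreg (edgeR quasi-likelihood test, adjusted p under 0.05). Gains were steep, with a median size of 1.85 on the log2 scale, 84.2% of them over 2-fold and 45% over 4-fold. Over all calls losses were shallower and broader, with a median size of 1.04 on the log2 scale, 53.5% over 2-fold and 11.3% over 4-fold. The sizes depended on level. Of 5 equal classes of level over all pull-downs, the lowest had a median gain of 3.12 and a median loss of -5.85, with 210 losses. The highest had a median gain of 1.12 and a median loss of -0.82, with 6744 losses. The TGFβ iTreg libraries had fewer reads, which limits the calling of losses in regions of few reads. The gained regions covered 40.6 Mb and held 29.6% of TGFβ iTreg reads, against 11.9% of naive reads. The lost regions covered 50.1 Mb and held 17.2% of TGFβ iTreg reads, against 30.4% of naive reads. Without TGFβ iTreg replicate 2 the counts were 10023 higher and 6086 lower, without TGFβ iTreg replicate 1 there were 5516 lower, and DESeq2 gave 13425 higher and 4118 lower. A model of pull-down over input gave 7494 higher and 2199 lower.

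Gains were frequent where naive cells had almost no 5hmC. When tested regions were cut into 10 equal classes of naive level, in the lowest class, at most 0.963 CPM, 40.0% rose and 0 fell. In the highest class, above 14.3 CPM, 13.9% rose and 38.7% fell. The naive level is also 1 side of the difference, and a region with few naive reads was tested only where another group had reads, so these shares describe the set and test nothing. Of the regions that rose, 154 had no naive read and 1156 had at most 3 in both naive libraries together.

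**Figure D1:**
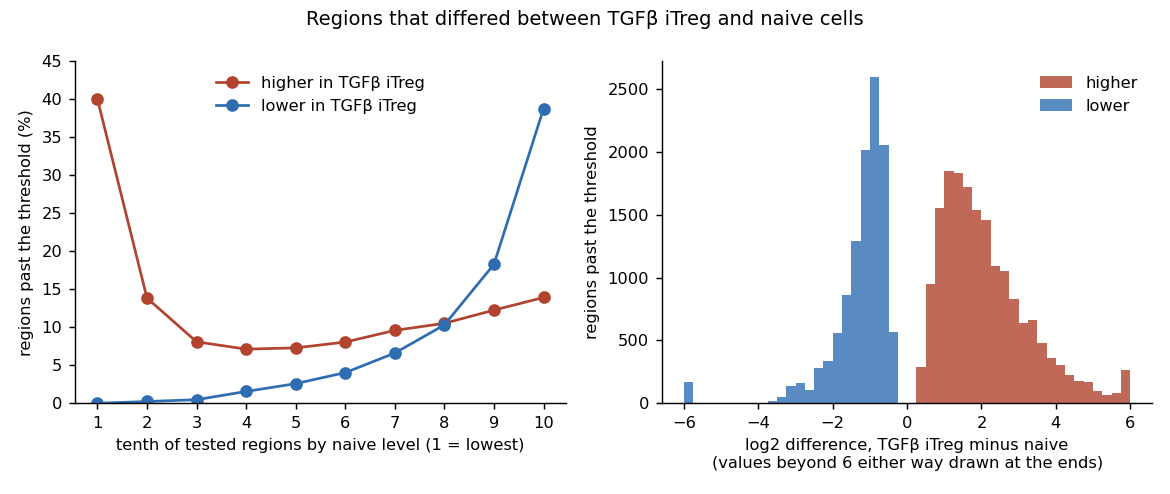
Left, the share of regions (%) that passed the test in each of 10 classes of naive level, from lowest to highest, with regions higher in TGFβ iTreg in red and lower in blue. Right, the number of regions by log2 difference (TGFβ iTreg minus naive), with values beyond 6 either way drawn at the ends. Gains run from 40.0% in the lowest class to 13.9% in the highest, losses from 0 to 38.7%, and gains spread further from 0 than losses.

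By gene part, gains lay more often between genes and losses more often on 5′ UTRs, but only the first held once region size was taken into account. Among intergenic regions 17.4% rose and 6.59% fell, whereas among regions on a 5′ UTR 11.4% rose and 17.6% fell. Wide regions fell more often: of regions over 10 kb, 19.4% rose and 47.6% fell. When each part was standardised to the same mix of width and abundance, 18.2% of intergenic regions rose and 7.70% fell, and 9.53% of 5′ UTR regions rose and 8.68% fell. The 17.6% of 5′ UTR regions that fell thus came to 8.68%, near the 8.28% of all tested regions. By distance, with no such standardising, 14.4% of regions on a start, 8.04% of those 1 to 1000 bp away and 16.6% of those over 100 kb away rose. The X chromosome had the lowest median difference, -0.29 on the log2 scale, against -0.03 over all tested regions. The share of input reads on X was 0.732% and 0.717% in TGFβ iTreg, against 0.720% and 0.716% in naive cells.

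**Figure D2:**
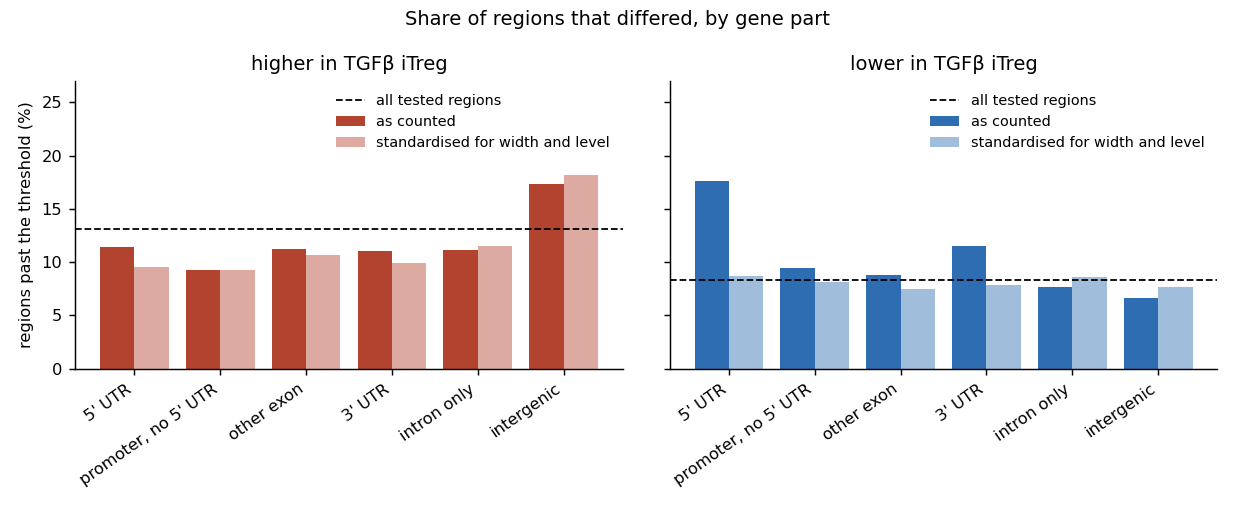
Share of tested regions (%) that rose (left, red) or fell (right, blue) in TGFβ iTreg by gene part, as counted (dark bars) and standardised to 1 mix of region width and abundance (light bars); the dashed line is the share over all tested regions. The 5′ UTR bar for losses shrinks to 8.68% on standardising, and the intergenic bar for gains stays at 18.2%.

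Among regions that passed with a mean of at least 50 reads in the higher group, those with the 10 largest gains were near zero in naive cells. A 410 bp exon region of Nbeal1 (chr1:60293049-60293458) had 29.8 and 27.4 CPM in TGFβ iTreg, against 0 and 0 CPM in naive cells. With the naive group set at the floor of 3 reads, the ratio was 167-fold. The counting interval of the ratio, which also covers the TGFβ iTreg reads, begins at 133-fold. An intergenic region far from the start of Pitrm1 (chr13:6405594-6406818), a gene for a mitochondrial peptidase, had 34.6 and 30.9 CPM in TGFβ iTreg, against 0.128 and 0.206 CPM in naive cells. With 3 naive reads in all, the ratio was 190-fold with a counting interval of 63.6 to 936. In both regions the 2 TGFβ iTreg libraries were alike. Their distance from the 2 naive libraries follows from the choice of regions, which required groups that do not overlap and the largest differences. Others of the 10 were intergenic regions assigned to Shank2, a postsynaptic scaffold gene (log2 6.68, SE 0.37), to Tent5a (log2 6.33, SE 0.36) and to Stc2, which encodes the hormone stanniocalcin (log2 6.24, SE 0.29), and, after 3 further regions, an intron region of Dock1, an activator of Rac (log2 5.89, SE 0.31). All of these 10 gains were intergenic, intronic or in 1 case exonic, and none lay on a promoter or UTR. Of all 135412 tested regions, 6749 lay on a 5′ UTR, 11333 on a promoter without one and a further 6740 on a 3′ UTR. With so small a share, none among 10 says little.

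Under the same minimum of reads, the 10 largest losses were smaller in size than the 10 largest gains, but unequal depth bears on this comparison. The same number of reads is a higher CPM in TGFβ iTreg, whose libraries had fewer reads. The floor was also higher there, at 1.79 and 1.5 CPM, against 0.385 and 0.308 CPM in naive cells. A loss at the minimum could therefore span a smaller ratio than a gain, and whether losses were truly smaller was not tested. An exon region of Acss2 (chr2:155398734-155399216), whose product makes acetyl-CoA from acetate, had 0.596 and 0.998 CPM in TGFβ iTreg, against 7.56 and 7.91 CPM in naive cells. That is 1 and 2 reads, against 59 and 77 reads, a ratio of 0.105 with a counting interval of 0.0214 to 0.313. In a model of pull-down over input the Acss2 difference was 2.46 on the log2 scale with an adjusted p of 0.727 (edgeR), so neither its direction nor its call held there. An intron region of Wipf1 (chr2:73353877-73354435), which encodes a partner of the actin regulator WASP, had 1.19 and 0.998 CPM in TGFβ iTreg, against 8.46 and 7.50 CPM in naive cells. A region in an intron of Rapgef6, a Rap activator, had 1.19 and 0.998 CPM in TGFβ iTreg, against 7.56 and 7.19 CPM in naive cells. Of these 10 losses, Wipf1, Rapgef6, Nsf, Rnf144a, Arl15, Kcng3 and Chl1 kept their direction but no longer passed in the model of pull-down over input.

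Counted in regions, gains lay in longer runs than losses did. More regions rose than fell, and the lost regions were wider, with a median of 2552 bp against 1292 bp. A run of losses was therefore not always shorter in kb, and whether gains cluster beyond their number was not tested. Regions that rose formed 12556 runs of neighbouring tested regions, of which 250 had at least 5 and 17 at least 10 regions. Regions that fell formed 9050 runs, of which 52 had at least 5 and 0 at least 10. The longest run of gains comprised 18 regions over 65.0 kb of Ptprj (chr2:90360028-90425063), which encodes CD148, a receptor phosphatase that acts on T cell receptor signalling. Its summed level was 227 and 236 CPM in TGFβ iTreg, against 69.6 and 71.1 CPM in naive cells. A run of 16 regions over Cpox, Gpr15 and Cldnd1 (chr16:58678764-58737066) held 220 and 292 CPM in TGFβ iTreg, against 39.0 and 39.4 CPM in naive cells. Gpr15 encodes a receptor that guides T cells to the large intestine. Runs of 16 and 14 regions lay at Ppm1l, a phosphatase gene, the second extending over B3galnt1 and Nmd3 with 248 and 298 CPM in TGFβ iTreg, against 17.2 and 20.2 CPM in naive cells. A run of 13 regions lay in Pvt1, the long noncoding RNA next to Myc. In each of these runs the groups did not overlap, as in 17490 of all 17693 regions that rose. The Ptprj run, without TGFβ iTreg replicate 2, kept 11 of its regions and the Gpr15 run 9.

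The longest run of losses comprised 9 regions over 123 kb of Tgfbr3 (chr5:107598960-107722234), which encodes betaglycan, a coreceptor for TGFβ. Its summed level was 388 and 442 CPM in TGFβ iTreg, against 795 and 783 CPM in naive cells, and 6 of the 9 passed without TGFβ iTreg replicate 1. Shorter runs of losses covered Lonp2 and Siah1a (8 regions), Ppp3r1, the regulatory subunit of calcineurin (7 regions), Myo10 (7 regions) and part of Runx1, a transcription factor of T cell development (7 regions). Each run of losses stayed below the naive level in both TGFβ iTreg libraries, as did 11205 of all 11213 regions that fell. The Ppp3r1 run kept 4 regions without TGFβ iTreg replicate 1 and 3 without TGFβ iTreg replicate 2, and the Myo10 run 4 without TGFβ iTreg replicate 1.

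Of 14736 symbols with a tested region, 8796 had at least 1 that passed, 3874 with gains alone, 2523 with losses alone and 2399 with both. Gains alone were most numerous at Ppm1l (43 of 68 regions), Cradd, an adaptor of death signalling (34 of 52), Rabgap1l (33 of 89), Sel1l, part of the machinery that clears misfolded proteins from the endoplasmic reticulum (32 of 62), and Adamts6 (29 of 69). Losses alone were most numerous at Ldlrad3 (17 of 56), Tcf20 (15 of 36), Ano6, a phospholipid scramblase (13 of 48), Arpp21 (11 of 42) and Trak1 (11 of 28). The Cradd sum was 1379 and 1524 CPM in TGFβ iTreg, against 329.6 and 304 CPM in naive cells. The counts at Adamts6 and Ldlrad3 depended on single libraries, with as few as 11 gains at Adamts6 and 8 losses at Ldlrad3 without TGFβ iTreg replicate 2, and at Tcf20 there were 4 losses without TGFβ iTreg replicate 1. Rabgap1l had 22 and Sel1l 16 gains without TGFβ iTreg replicate 2, and Ano6 had 7, Arpp21 7 and Trak1 6 losses without TGFβ iTreg replicate 1. Mixed loci included Wwox (25 gains and 17 losses among 166 regions), whose sum did not pass the test (log2 0.04, SE 0.05), and Runx1 (13 gains and 17 losses). A sum per symbol therefore can hide opposite changes.

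The sums per symbol were used for gene groups. Of 14951 symbols tested, 3496 (23.4%) rose and 2721 (18.2%) fell, with a median of -0.02 on the log2 scale, and this stands beside each list below. Counts of members are descriptions, since the lists were chosen with results of these data known.

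Treg genes gained 5hmC broadly. Of 24 members tested 21 rose and 0 fell, with a median log2 difference of 1.13, and Lag3, Izumo1r and Foxp3 were the 3 that did not pass. Socs2, a feedback inhibitor of cytokine signalling, had 224 and 289 CPM in TGFβ iTreg, against 24.0 and 22.9 CPM in naive cells. Il10, an inhibitory cytokine, had 143 and 153 CPM in TGFβ iTreg, against 32.6 and 32.6 CPM in naive cells. Rgs1, a brake on chemokine receptors, had 396 and 423 CPM in TGFβ iTreg, against 86.1 and 82.0 CPM in naive cells. These 3 genes stood at several times the naive level in both libraries (log2 3.47, 2.18 and 2.29). The smaller gains included Icos, a costimulatory receptor (log2 1.04, SE 0.05), Nt5e, which encodes the ectonucleotidase CD73 (log2 1.21), and Nrp1, a coreceptor of semaphorins found on Treg (log2 1.60, SE 0.06).

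Il2ra, the high-affinity chain of the IL-2 receptor, gained at most of its regions. Its 5′ UTR region (chr2:11563877-11567653) had 68.5 and 79.8 CPM in TGFβ iTreg, against 5.26 and 4.11 CPM in naive cells (log2 4.00, SE 0.17, adjusted p = 2.67e-113). The gene body region (chr2:11568438-11596474) had 385 and 484 CPM in TGFβ iTreg, against 78.7 and 74.4 CPM in naive cells. An intergenic region upstream (chr2:11542131-11552844) had 170 and 180 CPM in TGFβ iTreg, against 19.7 and 19.6 CPM in naive cells. In all, 6 of 7 regions rose, and the steepest gain was in the region that holds the start. Ctla4, the inhibitory receptor that removes CD80 and CD86 from partner cells, rose in 11 of 11 regions, by 2.45 on the log2 scale over the gene itself (371 and 456 CPM in TGFβ iTreg, against 76.9 and 75.3 CPM in naive cells) and by 0.74 and 0.73 at the outer ends.

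**Figure D3:**
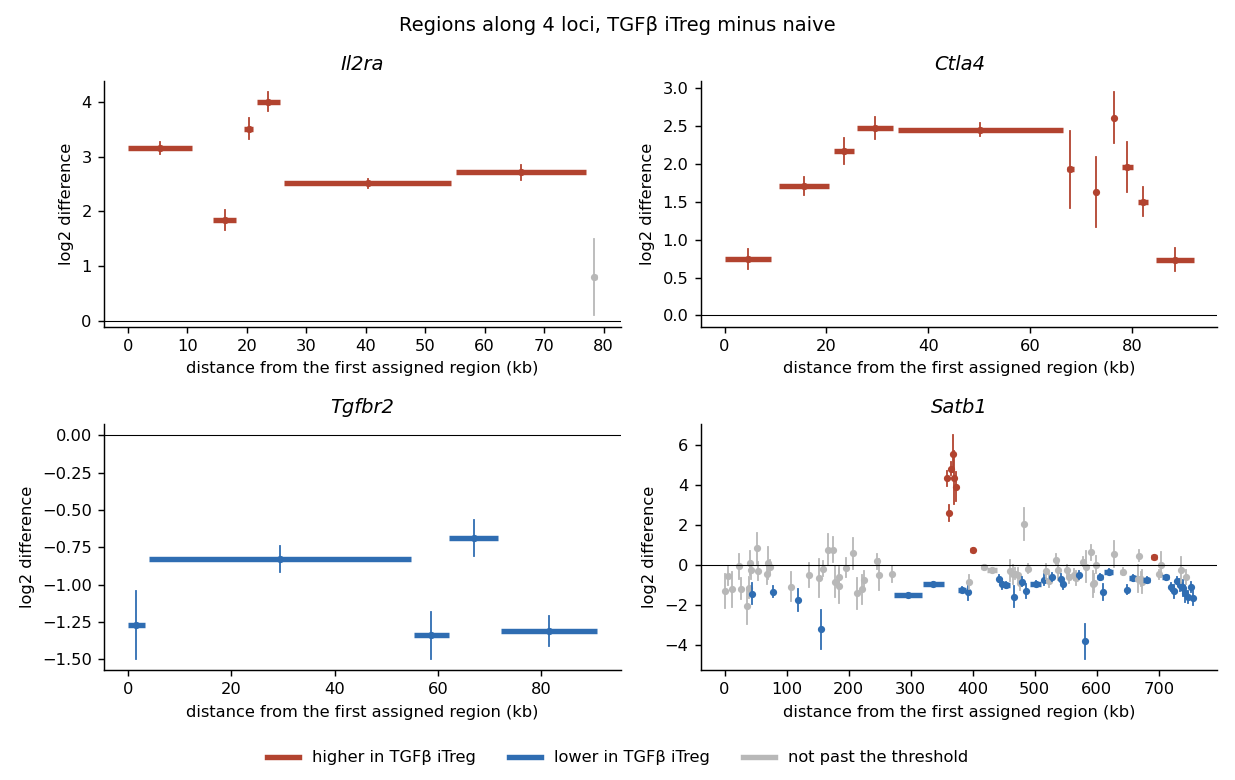
Log2 difference (TGFβ iTreg minus naive) of each tested region along Il2ra, Ctla4, Tgfbr2 and Satb1, against distance from the first assigned region (kb). Horizontal lines span a region, points mark its centre, vertical lines give ± 1 SE, and colours give the direction of regions that passed the test. Regions of Il2ra and Ctla4 lie above 0, those of Tgfbr2 below 0, and Satb1 has 37 regions lower and 8 higher, 6 of those 8 in 1 cluster.

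Foxp3 itself showed a divided locus. The region on its 3′ part (chrX:7163959-7172345) had 14.3 and 20.5 CPM in TGFβ iTreg, against 14.4 and 17 CPM in naive cells, and did not pass (log2 0.16, SE 0.21). The adjoining region (chrX:7156699-7163183), which the table assigns to Flicr, the noncoding RNA that begins within Foxp3, had 96.5 and 130 CPM in TGFβ iTreg, against 11.4 and 12.9 CPM in naive cells (log2 3.22, SE 0.13, adjusted p = 2.86e-127). The groups overlapped in the first region and lay far apart in the second. As sums per symbol, Foxp3 stood at 15.4 and 21.3 CPM in TGFβ iTreg and 36.6 and 41.1 CPM in sorted Treg, against 14.9 and 17.6 CPM in naive cells, and Flicr at 118 and 153 CPM in TGFβ iTreg and 14.3 and 15.8 CPM in sorted Treg, against 17.7 and 21.3 CPM in naive cells. Whether TGFβ iTreg and Treg differ there was not tested here.

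Genes of TGFβ signalling changed in both directions. Of 33 tested 11 rose and 13 fell, with a median of -0.05. Among the receptors, Tgfbr2, the ligand-binding chain, had 417 and 419 CPM in TGFβ iTreg, against 819 and 812 CPM in naive cells (log2 -0.96, SE 0.05, adjusted p = 5.37e-34), and all 5 of its regions fell by between 0.69 and 1.34 on the log2 scale. Tgfbr1, the signalling chain, had 159 and 158 CPM in TGFβ iTreg, against 113 and 108 CPM in naive cells (log2 0.52, SE 0.08). The 2 chains of 1 receptor thus moved oppositely. Among the transducers, Smad3 rose (log2 0.35, SE 0.05) and Smad4, the shared partner, fell (log2 -0.72). Among inhibitors, Smurf1, a ubiquitin ligase for receptors and SMADs, fell (log2 -0.82, SE 0.07), the corepressor Ski fell (log2 -0.62, SE 0.05), the inhibitory Smad7 fell slightly (log2 -0.24, SE 0.06) and Tgif1, a corepressor, rose (log2 1.28, SE 0.12). The target gene Id1 had 63.6 and 67.2 CPM in TGFβ iTreg, against 23.2 and 24.1 CPM in naive cells. Of its 7 tested regions 1 rose and 0 fell, with a median log2 difference of 0.51.

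Receptors and feedback genes of the cytokine pathways showed a few large gains among many small changes. Il2rb, the IL-2 receptor beta chain, had 233 and 305 CPM in TGFβ iTreg, against 72.3 and 70.4 CPM in naive cells. Cish, a STAT5-induced inhibitor, had 422 and 497 CPM in TGFβ iTreg, against 51.0 and 54.3 CPM in naive cells (log2 3.13, SE 0.07, adjusted p = 1.48e-73). Both TGFβ iTreg libraries exceeded both naive libraries several-fold. In the list of IL-2 and common gamma-chain receptors and STAT factors 5 of 20 rose and 6 fell, and in the SOCS list 4 of 8 rose and 0 fell. Of the IL-2 list 4 fell without TGFβ iTreg replicate 1. Socs1 rose (log2 1.52, SE 0.09), but from regions outside its transcript, since those on it gave 0.15 with an adjusted p of 0.895 (edgeR). Among gp130 and IL-12 family receptors 3 of 8 rose and 4 fell, from Lifr, the leukaemia inhibitory factor receptor (116 and 119 CPM in TGFβ iTreg, against 7.19 and 5.96 CPM in naive cells), to Il27ra (18.6 and 32.3 CPM in TGFβ iTreg, against 53.7 and 53.5 CPM in naive cells). The Lifr gain came mainly from an intergenic region upstream (chr15:7018376-7023391), at 81.6 and 82.8 CPM in TGFβ iTreg, against 1.67 and 1.75 CPM in naive cells.

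Genes of other helper T cell programmes also gained. For Th17 genes 11 of 14 rose and 2 fell (median 0.85), for Th1 genes 10 of 14 rose and 3 fell (median 0.66), and for Th2 genes 9 of 14 rose and 2 fell (median 0.89). Il17a, the Th17 cytokine, had 19.9 and 35.9 CPM in TGFβ iTreg and 3.2 and 3.0 CPM in iTreg cultured with retinoic acid and vitamin C as well, against 1.20 and 1.60 CPM in naive cells. Its single tested region lies 12827 bp from the start and outside the transcript, and the 4 regions of the chemokine Ccl20 are likewise intergenic. Ccr6, the receptor for that chemokine, had 207 and 199 CPM in TGFβ iTreg, against 34.9 and 38.5 CPM in naive cells, with gains on its starts (log2 2.99 and 2.19). Ifng, the Th1 cytokine, had 312 and 362 CPM in TGFβ iTreg, against 135 and 138 CPM in naive cells. Of the Th2 list, Il24 rose by 3.08 (SE 0.27) and Ccr3, the eotaxin receptor, by 2.79 (SE 0.13) on the log2 scale, while Gata3, the Th2 factor, fell by 0.22 and no longer passed without TGFβ iTreg replicate 1. Tbx21, the Th1 factor, did not pass (log2 0.47, SE 0.21). Without TGFβ iTreg replicate 2, 6 Th1 genes rose and 2 fell, and 1 Th17 gene fell without TGFβ iTreg replicate 1 or without either of the naive libraries. The Th2 list had 1 member lower without TGFβ iTreg replicate 1.

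**Figure D4:**
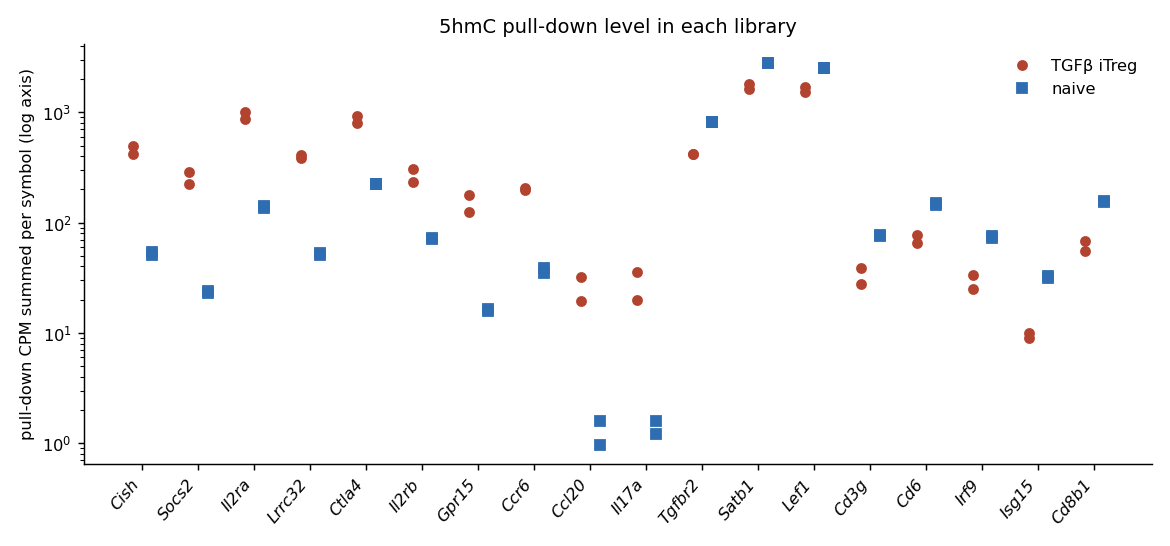
Pull-down CPM summed per symbol (log axis) in each library for 18 symbols, with TGFβ iTreg as circles on the left and naive cells as squares on the right of each gene. The groups do not overlap for any gene shown, though the TGFβ iTreg libraries differ for Il17a (19.9 and 35.9 CPM). With 2 libraries per group this says little, since the groups do not overlap for Wwox either, whose sum did not pass the test. Cish to Il17a lie higher in TGFβ iTreg and Tgfbr2 to Cd8b1 lower.

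Transcription factors of activation rose in part. In the AP-1, BATF and IRF list 8 of 18 rose and 5 fell (median 0.17). Batf3 had 31.5 and 25 CPM in TGFβ iTreg, against 6.53 and 7.99 CPM in naive cells, and Jun rose by 1.57 (SE 0.20) on the log2 scale, whereas Bach1, a repressor of oxidative stress genes, fell across 9 of 24 regions (log2 -0.67, SE 0.06) and Nfe2l2, which encodes NRF2, fell too (log2 -0.72, SE 0.07). Of NFAT and NF-kB factors 7 of 16 rose and 3 fell, Rel (177 and 179 CPM in TGFβ iTreg, against 90.2 and 84.5 CPM in naive cells) and Rela (82.8 and 73.4 CPM in TGFβ iTreg, against 117 and 111 CPM in naive cells) going opposite ways. Egr1, an early response gene, fell by 1.04 (SE 0.11) on the log2 scale in a list where 2 of 8 rose and 2 fell. Counted in tested regions, 1 of 6 fell at Egr1 and 1 of 5 at Rela, and 0 rose at either. Costimulatory receptors of the TNF family rose in 9 of 14 and fell in 4, with Tnfrsf18, which encodes GITR, higher by 1.28 (SE 0.10) on the log2 scale. Of the CD28 family and checkpoint receptors 7 of 13 rose and 1 fell, including Havcr2, which encodes TIM-3 (log2 0.73, SE 0.12). Among chemokine receptors and homing genes 11 of 23 rose and 1 fell, with Gpr15 at 125 and 179 CPM in TGFβ iTreg, against 16.4 and 15.7 CPM in naive cells. Without TGFβ iTreg replicate 2 no Nr4a or Egr gene rose and 2 fell, no CD28 family gene fell, and 9 homing genes rose and 3 fell.

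Genes of naive identity and quiescence fell more often than they rose. Of 23 tested 5 rose and 11 fell, with a median of -0.18 (2 and 12 without TGFβ iTreg replicate 2). Lef1 and Foxo1, transcription factors that keep T cells naive, fell by 0.63 (SE 0.05) and 0.60 (SE 0.05) on the log2 scale, and Slfn2, a quiescence gene, had 34.7 and 45.8 CPM in TGFβ iTreg, against 72.9 and 78.6 CPM in naive cells. Tcf7, a close relative of Lef1, was slightly higher (log2 0.20, SE 0.06), a call that was lost without TGFβ iTreg replicate 2.

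Satb1, a chromatin organiser of T cells, lost 5hmC over its body and gained it beside it. The wide region on its body (chr17:51871261-51916537) had 210 and 282 CPM in TGFβ iTreg, against 703 and 682 CPM in naive cells (log2 -1.48, SE 0.08, adjusted p = 9.95e-71). Further along the chromosome (chr17:51954038-51970253), 6 neighbouring regions rose by between 2.61 and 5.59 on the log2 scale. The best read of them (chr17:51961084-51964580) had 20.9 and 22.5 CPM in TGFβ iTreg, against 0.513 and 0.925 CPM in naive cells. In the sum these gains were outweighed, since 37 of 110 regions fell and 8 rose (1619 and 1799 CPM in TGFβ iTreg, against 2800.4 and 2778 CPM in naive cells).

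Genes of the T cell receptor complex and its signalling lost 5hmC more often than they gained it. Of 25 tested 14 fell and 4 rose, with a median of -0.26. Cd3g, a CD3 chain, had 27.6 and 39.0 CPM in TGFβ iTreg, against 77.7 and 75.6 CPM in naive cells. Cd6, a coreceptor, had 65.5 and 76.5 CPM in TGFβ iTreg, against 146 and 152 CPM in naive cells. Lck, the kinase that phosphorylates CD3, had 155 and 201 CPM in TGFβ iTreg, against 299 and 287 CPM in naive cells. In all 3 the naive libraries were about level with each other and clearly above both TGFβ iTreg libraries (log2 -1.18, -1.06 and -0.70). The loss at Lck spared its inner start, where 25 and 40.9 CPM stood in TGFβ iTreg, against 37.1 and 36.1 CPM in naive cells (log2 -0.12, SE 0.16). At Cd4 the 5′ UTR region chr6:124820386-124830427 fell (14.3 and 31.4 CPM in TGFβ iTreg, against 58.7 and 62.0 CPM in naive cells), while that at chr6:124836452-124843202 did not pass (log2 -0.11, SE 0.15). The list had 1 member higher and 15 lower without TGFβ iTreg replicate 2.

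Interferon-stimulated genes fell more often than they rose. Of 36 tested 17 fell and 4 rose, with a median of -0.33. The single region of Isg15 (chr4:155572266-155575555), a ubiquitin-like antiviral protein, had 8.34 and 9.48 CPM in TGFβ iTreg, against 30.0 and 31.9 CPM in naive cells. Irf9, the DNA-binding subunit of the interferon-activated complex, fell by 1.42 (SE 0.15) on the log2 scale over its 5′ UTR region, and Oas2, an RNA sensor, by 0.95 as a sum. Ifitm3, an antiviral membrane protein that belongs to a cluster of close copies, went the other way in all 5 regions, with 103 and 104 CPM in TGFβ iTreg on its start, against 9.10 and 9.04 CPM in naive cells. The authors' counting could split reads among such copies, and the 2 promoters printed above both hold the ISRE core. Of the 28 promoters found for this list, with 1 window per gene, 15 hold those letters, against 3.44% of all windows. That share describes the list, chosen as interferon-stimulated, and not the change in 5hmC. The list had 2 members higher and 13 lower without TGFβ iTreg replicate 2.

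Metabolic and cell cycle lists were mixed. Of 22 glycolysis genes 10 rose and 4 fell, among them Hk2, which encodes hexokinase 2 (222 and 199 CPM in TGFβ iTreg, against 68.7 and 67.4 CPM in naive cells), Hif1a, the hypoxia factor (log2 1.15, SE 0.07), and Ldhb, a lactate dehydrogenase subunit, which fell by 0.81 (SE 0.12). Of 12 amino acid transport genes 1 rose, Tfrc, the transferrin receptor kept in that list (log2 1.11, SE 0.08), and 3 fell. Of 32 cell cycle genes 11 rose and 3 fell, with the inhibitor Cdkn1a at 59.7 and 52.6 CPM in TGFβ iTreg, against 13.6 and 13.7 CPM in naive cells, Cdk6 at 600 and 638 CPM in TGFβ iTreg, against 248 and 239 CPM in naive cells, and Ccnd2 at 83.5 and 85.4 CPM in TGFβ iTreg, against 153 and 152 CPM in naive cells. The D-type cyclins Ccnd2 and Ccnd3 were lower while their partner kinase Cdk6 was higher. Of 50 ribosomal protein genes 4 rose and 13 fell (median -0.25). These genes have many near-identical pseudogenes, and the gains of Rpl24 and Rpl19 came from regions outside their transcripts. Of the ribosomal list 2 rose and 9 fell without TGFβ iTreg replicate 2.

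In the list of enzymes and readers of DNA methylation 7 of 27 rose and 11 fell (median -0.06). Tet2 had 255 and 236 CPM in TGFβ iTreg, against 153 and 152 CPM in naive cells (log2 0.68, SE 0.07). Tet1 fell (log2 -0.38) and Tet3 fell slightly (log2 -0.14). Dnmt3l, a cofactor of the de novo methyltransferases, had 80.3 and 85.4 CPM in TGFβ iTreg, against 15.2 and 14.2 CPM in naive cells, all but a small part of it in 1 of its 7 regions, on the 3′ UTR (chr10:77524955-77527829; log2 3.50, SE 0.17). Without TGFβ iTreg replicate 1, 5 of the list rose and 5 fell, 5 and 7 did so without TGFβ iTreg replicate 2, and 6 and 7 without naive replicate 2.

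Markers of T cells and of other cell types were compared per length, as the median of summed CPM per kb over each list. The CD4 T cell markers stood at 3.93 and 5.09 CPM per kb in TGFβ iTreg, against 6.80 and 6.88 CPM per kb in naive cells, and 10 of 13 fell as sums while 1 rose. The CD8 and NK cell markers stood at 3.18 and 3.03 CPM per kb in TGFβ iTreg, against 4.71 and 4.68 CPM per kb in naive cells. As sums, 5 of 9 fell and 1 rose. Cd8b1 fell, with 55.2 and 68.2 CPM in TGFβ iTreg, against 153 and 158 CPM in naive cells. Gzmb rose, with 314 and 340 CPM in TGFβ iTreg, against 153 and 153 CPM in naive cells. B cell markers stood at 3.21 and 3.19 CPM per kb in TGFβ iTreg, against 3.13 and 2.90 CPM per kb in naive cells, and myeloid markers at 4.25 and 4.07 CPM per kb in TGFβ iTreg, against 3.61 and 3.03 CPM per kb in naive cells. All symbols together stood at 3.34 and 3.47 CPM per kb in TGFβ iTreg, against 3.35 and 3.35 CPM per kb in naive cells. Of the B cell markers 4 of 13 rose and 1 fell, and of the myeloid markers 5 of 12 rose and 3 fell. Values per kb exist only for markers with a tested region, 12 of 14 for B cells, 12 of 14 for myeloid cells, 9 of 11 for CD8 and NK cells and 13 of 15 for CD4 T cells. Without TGFβ iTreg replicate 2, 2 B cell markers and 0 CD4 T cell markers rose, and without naive replicate 1, 3 of the CD8 and NK markers fell, against 5 of 9 with all libraries. In both groups the CD4 T cell markers stood above all symbols. The part of other cell types in the gains and losses above was not tested.

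**Figure D5:**
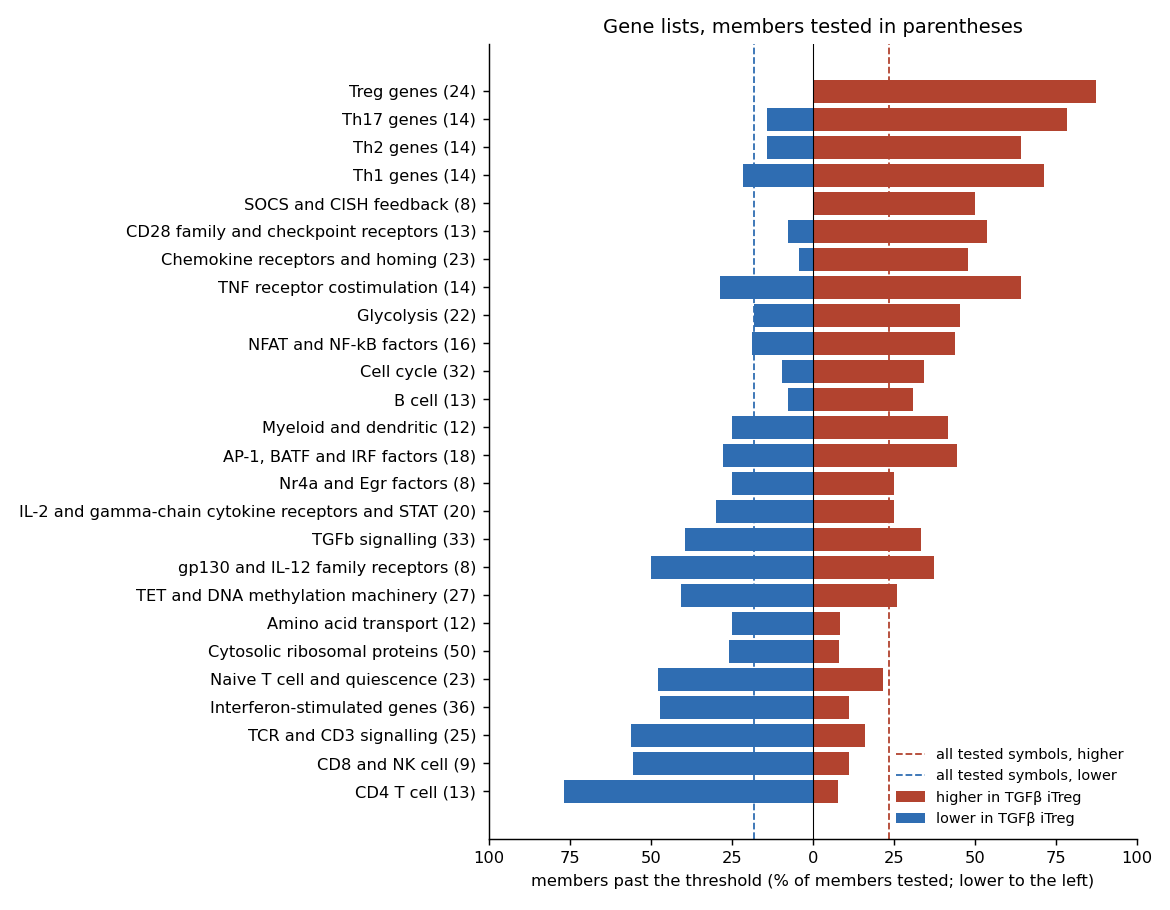
Members of each gene list (%, of those tested, number in parentheses) that rose in TGFβ iTreg (red, to the right) or fell (blue, to the left), with dashed lines at the shares over all tested symbols, 23.4% higher and 18.2% lower. Treg genes have 21 of 24 members higher and none lower, and CD4 T cell markers 1 of 13 higher and 10 lower.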

How the data were processed

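CMS-IP sequencing gave 8 pull-downs and 8 inputs of 4 groups with 2 replicates each. The 4 pull-downs and 4 inputs of TGFβ iTreg and naive cells carry the comparison, and all 8 pull-downs share the fit. The deposited table holds raw read counts per region on mm9, over a union of broad MACS2 peaks at q 0.01, per the file headers. The submitters' processing notes name MACS2 2.1.0.20151222, SAMtools 1.7, Trim Galore 0.4.2 and bcl2fastq 2.20.0.442. Not given in the sources used here are the aligner, the counting tool and the level (library or pool) of peak calling.

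Counts were tested with edgeR 4.0.16 (glmQLFit and glmQLFTest, R 4.3.3) after filterByExpr with a minimum count of 10 and TMM scaling, with group as the only term, 4 residual degrees of freedom and Benjamini-Hochberg adjustment over all tested regions at 0.05. Reads were also summed per symbol by the nearest transcript the table assigns, so a symbol's value can hold reads of neighbouring genes. CPM use TMM-scaled library sizes, and an SE is the log2 difference over the square root of F. The labels do not say that replicates came from separate mice or cultures, so p-values reflect only library-to-library spread, possibly technical. Alternatives were DESeq2 1.42.0, other scalings and filters, thinning to equal depth, pull-down over input in 1 model and leaving out each replicate. The fit was tested on simulated data.

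Members and lists were chosen with earlier results of these data known. Named regions are the 10 highest and 10 lowest log2 differences among those that passed, with a mean of at least 50 reads in the higher group, no overlap of the groups and a symbol that is no predicted gene. Named loci are the 5 with the most regions in each direction and in both, and the 5 longest runs each way. From each list, up to 4 members that passed are named, from the highest and lowest log2 differences. Outside these rules, Flicr, Foxo1, Foxp3, Il10, Izumo1r, Lag3, Lck, Lef1, Nrp1, Nt5e, Oas2, Satb1, Ski, Smad3, Smad4, Smad7, Tbx21, Tet1, Tet2, Tet3 and Tgfbr1, and single regions of named genes, were chosen after their values were seen.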

Additional observations from a re-analysis of the deposited data

How the results depend on the processing

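No paired analysis was possible because the TGFβ iTreg and naive libraries share no replicate label. Against 17693 regions higher and 11213 lower, a mean of at least 50 reads left 5578 and 4261, thinning to equal depth 9703 and 5306, and pull-down over input in 1 model 7494 and 2199. DESeq2 gave 4118 lower. Leaving out 1 replicate gave between 10023 and 15212 higher and between 5516 and 9335 lower. Fewer regions were tested under the filter (22265) and after thinning (50058); for the others the cause was not tested. Scaling by library size gave 17050 higher and 12766 lower. Counts of symbols stayed within 1.5 times under each alternative run on them. Scaled by library size, 3199 symbols were higher and 3239 lower, against 3496 and 2721 with TMM, so the excess of gains did not hold. The Acss2 region reversed to 2.46 (adjusted p = 0.727, edgeR) with pull-down over input. Summing only regions on a transcript reversed the symbol Rpl24 to -0.49 (adjusted p = 0.0189, edgeR) and the symbol Rpl19 to -0.47 (adjusted p = 0.0845, edgeR); the regions summed there exclude those that carried the gains. TGFβ iTreg pull-downs had the fewest reads, which limits losses most: their floor was 1.79 and 1.5 CPM, against 0.385 and 0.308 CPM in naive cells.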
